A study of Mus musculus with 13 samples.

Results

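The genes described here carry the core of the mammalian oxygen-sensing pathway: the α subunits of the hypoxia-inducible factors (Hif1a, Epas1 and Hif3a), their common partner Arnt, the prolyl hydroxylases Egln1, Egln2 and Egln3, the asparaginyl hydroxylase Hif1an, the ubiquitin ligase subunit Vhl, and Bnip3 as a target gene. They were chosen by symbol, and all 10 symbols were found among the 32544 rows of the deposited count table. Of these, 8 had enough counts to be tested among 12496 genes, and Hif3a and Egln3 did not. The libraries are 3′ tag libraries (Quant-seq, which reads the ends of polyadenylated transcripts) of whole lung from wild-type (WT) C57BL/6J male mice, bought at 7 weeks of age. Mice of the Normoxia group (n = 7 libraries) breathed 21% oxygen and mice of the Hyperoxia group (n = 6 libraries) breathed 80% oxygen, both over 5 days, and lungs of both groups were perfused with cold DPBS before freezing. The labels name samples and do not state that each came from a different mouse, so the p-values measure the spread between these libraries, which may be in part technical.

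When oxygen is plentiful, the prolyl hydroxylases (PHD enzymes, encoded by the Egln genes) hydroxylate HIF α subunits, and the VHL ubiquitin ligase then marks the hydroxylated subunits for destruction. FIH, the product of Hif1an, hydroxylates an asparagine of the α subunit and so blocks binding of the coactivators CBP and p300. Most of this regulation acts on the protein, which these libraries do not measure, whereas transcript levels set how much of each subunit or enzyme can be made. EPAS1 protein (HIF2α) is known in lung for its abundance in endothelium and alveolar type 2 cells.

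The HIF dimer binds DNA at the letters ACGTG, the core of a hypoxia response element, or at its variant form, which is spelled GCGTG. The 250 bases before the start annotated by RefSeq are shown for Hif1a, the member with the largest fold change, and for Bnip3, which stands among the members as a HIF target. Both sequences are from RefSeq on GRCm38.p6, 5′ to 3′ on the strand of the gene, with every match of either form, on either strand, in capitals. On the other strand the core reads CACGT, and its variant is found there with the spelling CACGC. For Hif1a the RefSeq start lies downstream of the GENCODE gene start used for its coordinates, so that its window falls inside the GENCODE gene span and is not the sequence before the GENCODE start.
Hif1a, chr12:73907617-73907866, plus strand: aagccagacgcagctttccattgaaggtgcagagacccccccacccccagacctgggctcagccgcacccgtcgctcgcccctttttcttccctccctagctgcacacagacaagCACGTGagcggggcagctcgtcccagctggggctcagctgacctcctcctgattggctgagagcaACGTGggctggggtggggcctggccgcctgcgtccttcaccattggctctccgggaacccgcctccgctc
Bnip3, chr7:138909507-138909756, minus strand: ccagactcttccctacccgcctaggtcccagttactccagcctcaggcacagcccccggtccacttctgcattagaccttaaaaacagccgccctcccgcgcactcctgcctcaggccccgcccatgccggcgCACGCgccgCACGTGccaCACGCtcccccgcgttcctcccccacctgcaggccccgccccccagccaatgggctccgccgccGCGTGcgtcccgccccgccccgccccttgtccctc
The Hif1a window held 3 matches, at 135, 134 and 70 bases before the start, of which the first 2 overlap in the palindrome CACGTG. The Bnip3 window held 5 matches, of which 2 overlap in the same palindrome. Of 32851 promoter windows of this length, 38.6% held at least 1 match and 16.7% held at least 2. A promoter was given for 9 of the 10 members, Epas1 being the member not matched. The matches numbered 2 for Hif3a, 1 for Arnt, 2 for Egln1, 1 for Egln3 and 0 for Vhl and Hif1an, and Egln2 had a window with 4 and another with 1 for its second start. A match describes these letters and not a bound site.

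Total counts per library ran from 1607111 to 4540288. Hyperoxia replicate 1 stood apart: it had a count in 14170 genes against 15476 to 16595 in the others, its mitochondrial transcripts took 0.944% of counts against 1.94% to 3.24%, and its log2 CPM correlated with those of other libraries at r = 0.721 to 0.833 against 0.854 to 0.967 among the other 12. Results on the tested members are therefore given with and without it. The library names carry letters whose meaning the labels do not give, with 5 libraries of normoxia and 3 of hyperoxia lettered B to M, and 2 and 3 lettered O to S. Values within each letter set are given beside the main results for the tested members and for the gene lists around the pathway. Levels below are CPM, the share of a library's counts that a gene took, brought to a common library size after TMM scaling, fold changes are hyperoxia over normoxia on the log2 scale from edgeR, and adjusted p-values are Benjamini-Hochberg values over all 12496 genes.

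Among the 8 members tested, Hif1a rose and Epas1 fell in hyperoxia, and the other 6 did not pass the test at an adjusted p of 0.05. Over all genes tested, 22.6% passed in either direction, 11.8% as higher and 10.8% as lower. The count of members called is near that share and is not itself a result about the pathway. Hif1a was also the only member past an absolute log2 fold change of 1.5, as were 3.91% of all genes. The values of the groups did not overlap for Hif1a and Epas1, as for 10.8% of all genes. The median log2 fold change was -0.18 over the 8 members and -0.03 over all genes.

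**Figure D1:**
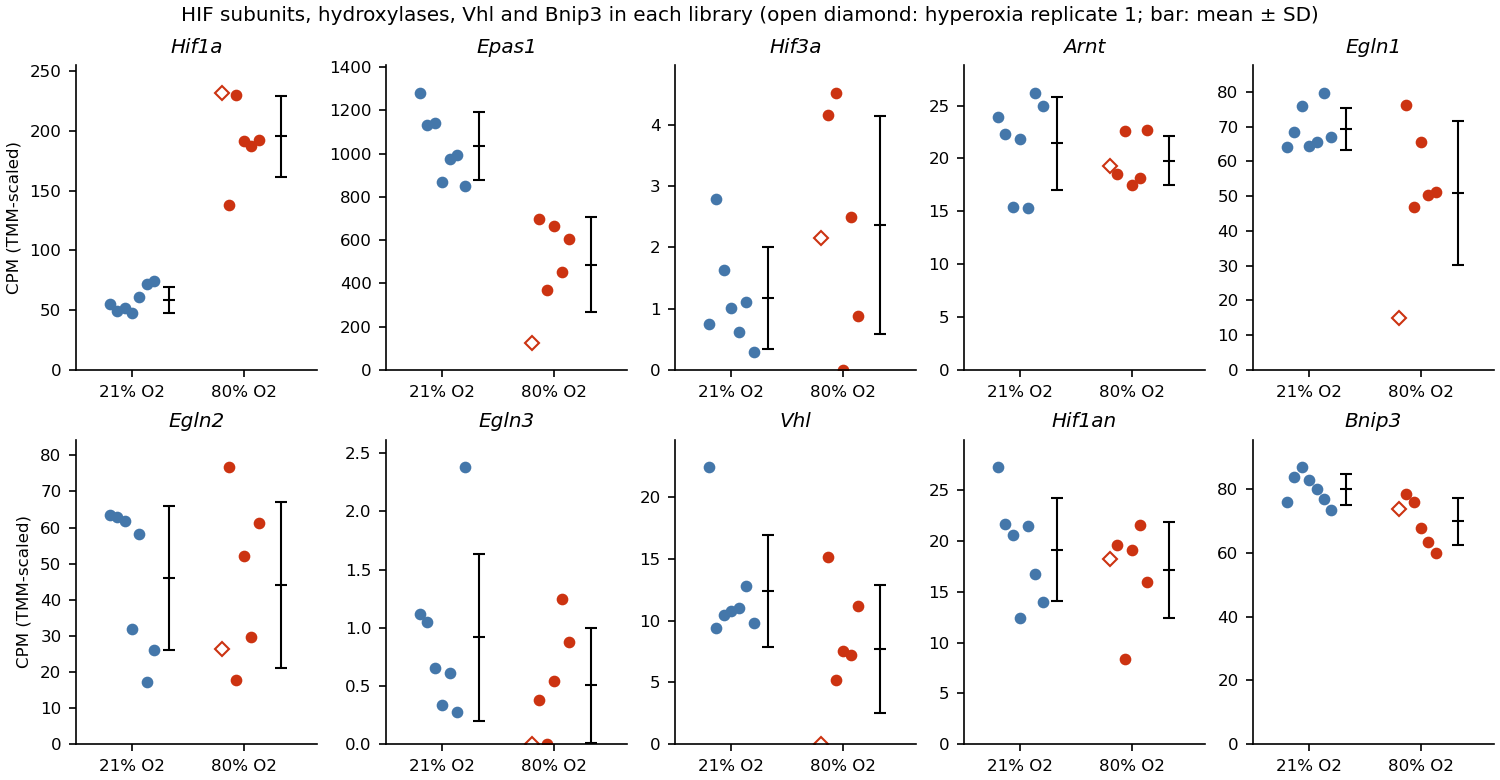
Level of each member in every library, in CPM after TMM scaling, with each panel on its own axis from 0; points are libraries, the open diamond is Hyperoxia replicate 1 and bars are mean ± SD (n = 7 and 6). All 6 hyperoxic points lie above the normoxic points for Hif1a and below them for Epas1, while the groups overlap in the other panels.

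Hif1a encodes HIF1α, the broadly expressed α subunit, and lies at chr12:73901375-73947530 on the plus strand of GRCm38. Its level in normoxia ran from 47.4 to 74.6 CPM with a median of 54.9, and in hyperoxia from 138 to 232 CPM with a median of 191.8. The lowest hyperoxic library thus lay above the highest normoxic library, and Hyperoxia replicate 1 was the highest of all. The mean went from 58.6 ± 10.9 CPM to 195 ± 34.2 CPM (SD, n = 7 and 6), a log2 fold change of 1.73 (SE 0.16) or 3.33-fold, with an edgeR adjusted p of 2.19e-06. It ranked 41st by p over all genes tested. The rise passed the test in 24 of 24 alternative analyses, with log2 fold changes between 1.37 and 1.98. Among B to M alone it was 1.98, among O to S alone 1.37, and 1.70 without Hyperoxia replicate 1. Exons of Hif1a share 330 bases with the antisense gene Gm15283 and 148 bases with Gm49321 on the same strand, and counts of such overlapping genes are uncertain, since use of strand in counting is not given in the sources used here.

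Epas1 encodes HIF2α and lies at chr17:86753700-86833410 on the plus strand. In normoxia its level ran from 849 to 1280 CPM with a median of 992, and in hyperoxia from 122 to 699.5 CPM with a median of 530.5. Every hyperoxic library lay below every normoxic library, and the hyperoxic libraries were spread more widely, with replicate 1 far below the rest at 122 CPM. The mean went from 1034 ± 157 CPM to 486 ± 219 CPM (SD), a log2 fold change of -1.09 (SE 0.29) or 0.470-fold, with an edgeR adjusted p of 0.0134. Without Hyperoxia replicate 1 the log2 fold change was -0.875 with an adjusted p of 0.000822. Within the letter sets it was -1.42 (adjusted p = 0.0689, B to M) and -0.69 (adjusted p = 0.0258, O to S). The fall passed the test in 22 of 24 alternatives, the exceptions being the B to M libraries alone and the fit with replicate number as a block, where it was -1.27 with an adjusted p of 0.0607. In these bulk samples, fewer cells of a type and less RNA per cell cannot be told apart.

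The opposite directions of the α subunits were set against each other within each library, where the scaling cancels. The ratio of Epas1 to Hif1a counts lay between 11.4 and 23.3 in normoxia and between 0.528 and 5.05 in hyperoxia, lowest in Hyperoxia replicate 1. It is read between libraries and not as a comparison of the levels of both genes. Its mean log2 value was 4.14 ± 0.40 in normoxia and 1.14 ± 1.15 in hyperoxia (SD, n = 7 and 6), a difference of -3.01. Since Hif1a and Epas1 each separated the groups, in opposite directions, their ratio had to separate them as well, and it is given as a description, without its p. The difference was -2.59 without Hyperoxia replicate 1, -3.64 within the B to M libraries and -2.07 within the O to S libraries.

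**Figure D2:**
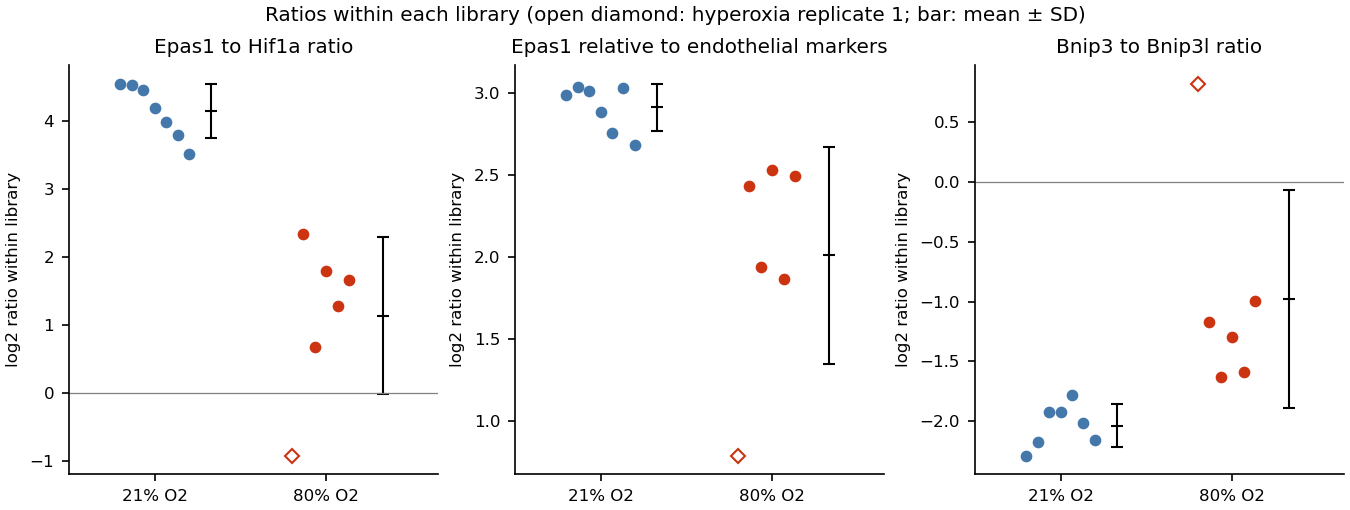
Log2 ratios within each library of Epas1 to Hif1a, of Epas1 to the mean of 21 endothelial markers and of Bnip3 to Bnip3l; points are libraries, the open diamond is Hyperoxia replicate 1, bars are mean ± SD, and each panel has its own axis. In all 3 panels the groups do not overlap, and Hyperoxia replicate 1 lies beyond the other hyperoxic libraries.

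Hif3a, whose products include short forms that restrain the other α subunits, lies at chr7:17031507-17062427 on the minus strand and was too rare for the test. It had 1 to 8 counts per normoxic library (24 in all) and 0 to 13 per hyperoxic library (40 in all). The mean level was 1.17 ± 0.83 CPM in normoxia and 2.37 ± 1.77 CPM in hyperoxia (SD), with overlapping groups. Fitted with no filter on low counts, the log2 fold change was 0.97 (SE 0.65) with an edgeR adjusted p of 0.356, so a difference was not detectable at this depth.

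Arnt, the β subunit that all α subunits need to bind DNA, lies at chr3:95434388-95497240 on the plus strand. Its level ran from 15.3 to 26.2 CPM with a median of 22.4 in normoxia and from 17.5 to 22.7 CPM with a median of 18.9 in hyperoxia. The hyperoxic range lay wholly inside the normoxic range. The log2 fold change was -0.12 (SE 0.18, 95% interval -0.47 to 0.23) with an edgeR adjusted p of 0.675, and within the B to M libraries its sign turned, at 0.075. The fold change was -0.40 within the O to S libraries and -0.1 without Hyperoxia replicate 1.

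Among the prolyl hydroxylase genes, Egln1 and Egln2 did not pass the test and Egln3 was too rare for it. Egln1 encodes PHD2, the main oxygen sensor for HIF1α, and lies at chr8:124908587-124949324 on the minus strand. Its level ran from 64.2 to 79.7 CPM with a median of 66.9 in normoxia and from 15.0 to 76.3 CPM with a median of 50.75 in hyperoxia. The normoxic libraries were close together, and 4 of 6 hyperoxic libraries lay below all of them, Hyperoxia replicate 1 by far the lowest. The log2 fold change was -0.44 (SE 0.25, 95% interval -0.92 to 0.04) with an edgeR adjusted p of 0.221, and without that library it was -0.24 with an adjusted p of 0.207. Within the B to M libraries it was -0.52 and within the O to S libraries -0.41.

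Egln2 encodes PHD1 and lies at chr7:27158658-27166802 on the minus strand, with 11 exon bases shared with Cyp2t4 on the other strand. It varied widely within groups, from 17.3 to 63.5 CPM with a median of 58.2 in normoxia and from 17.7 to 76.7 CPM with a median of 41.0 in hyperoxia. The groups overlapped over nearly their whole range. The log2 fold change was -0.05 (SE 0.36, 95% interval -0.76 to 0.66) with an edgeR adjusted p of 0.94. Without Hyperoxia replicate 1 it was 0.07. The letter sets gave opposite signs, -0.43 within B to M and 1.13 within O to S, the latter with an adjusted p of 0.037. In normoxia, the O to S libraries were at 17.3 and 26.2 CPM, below all 5 of the B to M libraries, which lay between 32.0 and 63.5 CPM. A test of the difference between the letter sets, added after the data were seen, gave 1.60 on the log2 scale with an edgeR adjusted p of 0.538 over all genes. Before adjustment p was 0.0333 in edgeR, and of 12496 genes 0 passed after adjustment and 1158 had an unadjusted p under 0.05 in this edgeR fit.

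Egln3 encodes PHD3, itself a known HIF target and abundant in smooth muscle, and lies at chr12:54178981-54203860 on the minus strand. It held 1 to 8 counts per normoxic library (19 in all) and 0 to 4 per hyperoxic library (11 in all). With no filter, the edgeR log2 fold change was -0.69 (SE 0.71, adjusted p = 0.546), which was not detectable at this depth. Relative to the mean of 14 smooth muscle and pericyte markers in the same library, Egln3 differed by -0.73 on the log2 scale (exact permutation test, adjusted p = 0.211). The difference was -0.40 with a pseudocount of 2 in place of 0.5 and -0.29 within the O to S libraries. Within the B to M libraries it was -1.24 and passed (exact permutation test, adjusted p = 0.0312), where the 3 hyperoxic libraries held 0, 1 and 0 Egln3 counts.

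Ratios within the hydroxylase family did not pass the exact permutation test either. Egln2 to Egln1 differed by 0.50 on the log2 scale (adjusted p = 0.332). That difference was 0.26 without Normoxia replicate 6, 0.29 without Hyperoxia replicate 1, 0.13 within the B to M libraries and 1.496 within the O to S libraries. Egln3 to Egln1 differed by -0.21 (adjusted p = 0.71), a sign that turned with a pseudocount of 2 (0.163). Among the subunits, Hif3a to Hif1a differed by -1.27 (adjusted p = 0.224), by -0.56 without Hyperoxia replicate 4, which held 0 Hif3a counts, and by -0.50 within the B to M libraries.

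Hif1an encodes FIH and lies at chr19:44562850-44576274 on the plus strand. Its level ran from 12.5 to 27.3 CPM with a median of 20.6 in normoxia and from 8.34 to 21.6 CPM with a median of 18.7 in hyperoxia. All but the lowest hyperoxic library lay inside the normoxic range. The log2 fold change was -0.16 (SE 0.24, 95% interval -0.62 to 0.31, edgeR adjusted p = 0.687), and it was 0.28 within the O to S libraries and 0.01 without Hyperoxia replicate 3, with the other sign. Within the B to M libraries it was -0.38, and without Hyperoxia replicate 1 it was -0.155.

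Vhl, the substrate receptor of the ligase, lies at chr6:113623959-113631633 on the plus strand and has a pseudogene, Vhl-ps1, with which its reads could be shared. Its level ran from 9.43 to 22.4 CPM with a median of 10.8 in normoxia and from 0 to 15.1 CPM with a median of 7.36 in hyperoxia. Hyperoxia replicate 1 held 0 counts, where 3 counts would be 1.61 CPM, and 4 of 6 hyperoxic libraries lay below all normoxic libraries. The log2 fold change was -0.65 (SE 0.45, 95% interval -1.53 to 0.23) with an edgeR adjusted p of 0.329. Without Hyperoxia replicate 1 it was -0.41 with an adjusted p of 0.313. It was -0.85 within the B to M libraries and -0.39 within the O to S libraries.

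Bnip3 encodes a mitochondrial protein that recruits autophagosomes and is a textbook HIF1 target. It lies at chr7:138890836-138909519 on the minus strand, with 504 exon bases shared with the antisense gene Gm45507. Its spread relative to its mean was the smallest among the members in both groups, with levels from 73.5 to 87.0 CPM with a median of 80.3 in normoxia and from 60.1 to 78.6 CPM with a median of 70.9 in hyperoxia. The ranges overlapped, with 3 of 6 hyperoxic libraries below all normoxic libraries. The log2 fold change was -0.20 (SE 0.12, 95% interval -0.42 to 0.03) with an edgeR adjusted p of 0.246. Without Hyperoxia replicate 1 it was -0.195, within the B to M libraries -0.057 and within the O to S libraries -0.248.

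Bnip3l (NIX), the closest relative of Bnip3 and also a mitophagy receptor, fell from 330 to 155 CPM (log2 fold change -1.09, SE 0.27, edgeR adjusted p = 0.00882). The ratio of Bnip3 to Bnip3l was 0.205 to 0.292 in normoxia and 0.324 to 1.76 in hyperoxia, with no overlap. Its log2 value differed by 1.06 (two-sided exact permutation test, p = 0.000583, the smallest that the 1716 arrangements allow, adjusted p = 0.00136 over 7 ratios and 0.00175 without that of Epas1 to Hif1a), and by 0.70 without Hyperoxia replicate 1 (adjusted p = 0.00295), which had the highest ratio. The difference was 1.36 within the B to M libraries (adjusted p = 0.0312) and 0.79 within the O to S libraries, where no p below 0.1 is possible. Levels of Bnip3l alone did not overlap between the groups, and Bnip3 had a log2 fold change of -0.20. The ratio and its p therefore largely restate the fall of Bnip3l.

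**Figure D3:**
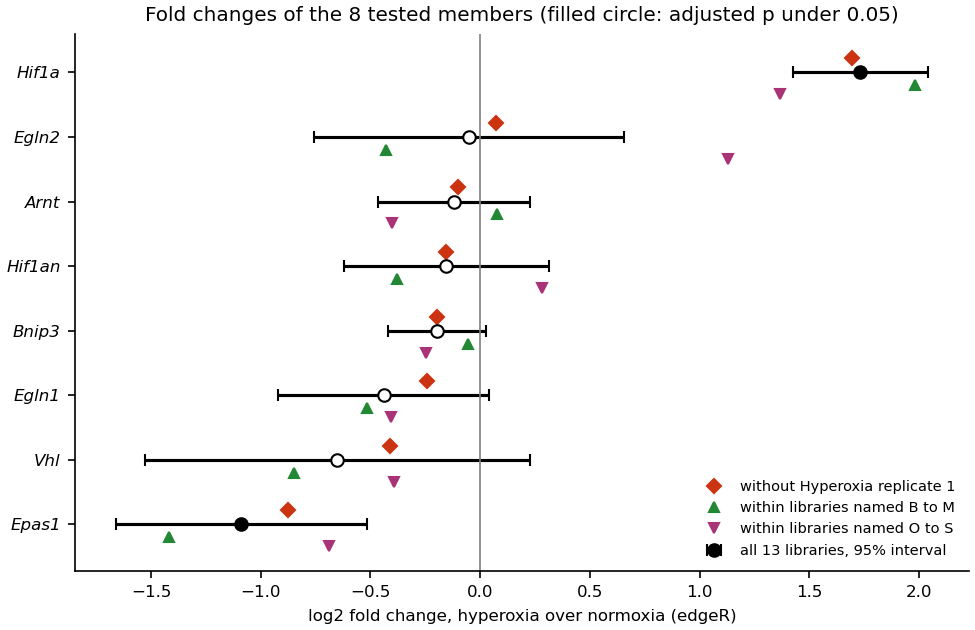
Log2 fold change of each tested member, hyperoxia over normoxia, from edgeR; circles with 95% intervals are from all 13 libraries (filled where the adjusted p is under 0.05), and the other symbols give the value without Hyperoxia replicate 1 and within each letter set of library names. Hif1a and Epas1 keep their sign in every setting shown, whereas Egln2 runs from -0.43 to 1.13.

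Known HIF target genes outside the members moved in both directions. Of 48 tested from a list of 56, 12 rose and 7 fell (39.6%, beside 22.6% of all genes), with a median log2 fold change of 0.08. Without Hyperoxia replicate 1, 16 rose and 9 fell, in a fit where 28.5% of all genes passed. Within the B to M libraries alone 10 passed, beside 8.8% of all genes, and within the O to S libraries 16 of 50 rose and 7 fell, beside 21.3%. The summed level of the list ran from 3258 to 3632 CPM in normoxia and from 4376 to 6098 CPM in hyperoxia, highest in Hyperoxia replicate 1. The glycolytic enzyme gene Gapdh alone, whose mean went from 440.4 to 1187 CPM, made up 52% of the rise of the mean sum, and 21 of the 48 tested genes had a fold change below 0. Without Gapdh the sum ran from 2865 to 3180 CPM and from 3599 to 4237 CPM. The HIF targets and the gene lists below were chosen with earlier results of these data known. Their shares of calls beside those of all genes are therefore a description and not independent evidence of an excess.

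The targets were grouped by role after their values were seen. Secreted and vascular factors had 4 of 9 tested genes higher and 2 lower, beside 11.8% and 10.8% of all genes. Angptl4, an inhibitor of lipoprotein lipase, rose by 2.61 on the log2 scale (SE 0.29, edgeR adjusted p = 1.61e-05). Edn1, which encodes the vasoconstrictor endothelin, rose by 2.08 (SE 0.17, adjusted p = 6.85e-07), from 41.1 to 174 CPM. Cxcr4, a chemokine receptor, fell by 2.29 (SE 0.34, edgeR adjusted p = 0.0002), from 9.10 to 1.89 CPM. In the hyperoxic libraries 3 counts would be 0.656 to 1.61 CPM. Vegfa, the vascular growth factor most often used as a HIF readout, was at 387 ± 129 and 388.5 ± 140.5 CPM (SD), a log2 fold change of 0.004 (adjusted p = 0.995).

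Among genes of glucose uptake, glycolysis and pyruvate handling, 5 of 19 rose and 1 fell, beside 11.8% and 10.8% of all genes. The other 13 did not pass, and the median of the group was 0.22. The genes that rose were Gapdh (log2 fold change 1.43), Hk1 (1.25), Slc2a1 (1.24), Hk2 (0.98) and Pgk1 (0.82), of which the hexokinases and the glucose transporter feed the pathway. Pdk1, a kinase that inhibits pyruvate dehydrogenase, fell by 0.68. Ldha, which makes lactate, was at 80.6 ± 12.5 and 81.0 ± 39.1 CPM (SD). Of 6 genes of collagen modification and cross-linking, Lox, the lysyl oxidase, rose by 2.33 (SE 0.25, edgeR adjusted p = 1.14e-05), Loxl2 rose by 0.39 and P4ha1, a collagen prolyl hydroxylase, fell by 0.62 (adjusted p = 0.00771). Of the 14 other targets tested, Higd1a rose, and Cited2, Mxi1 and Bnip3l fell.

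**Figure D4:**
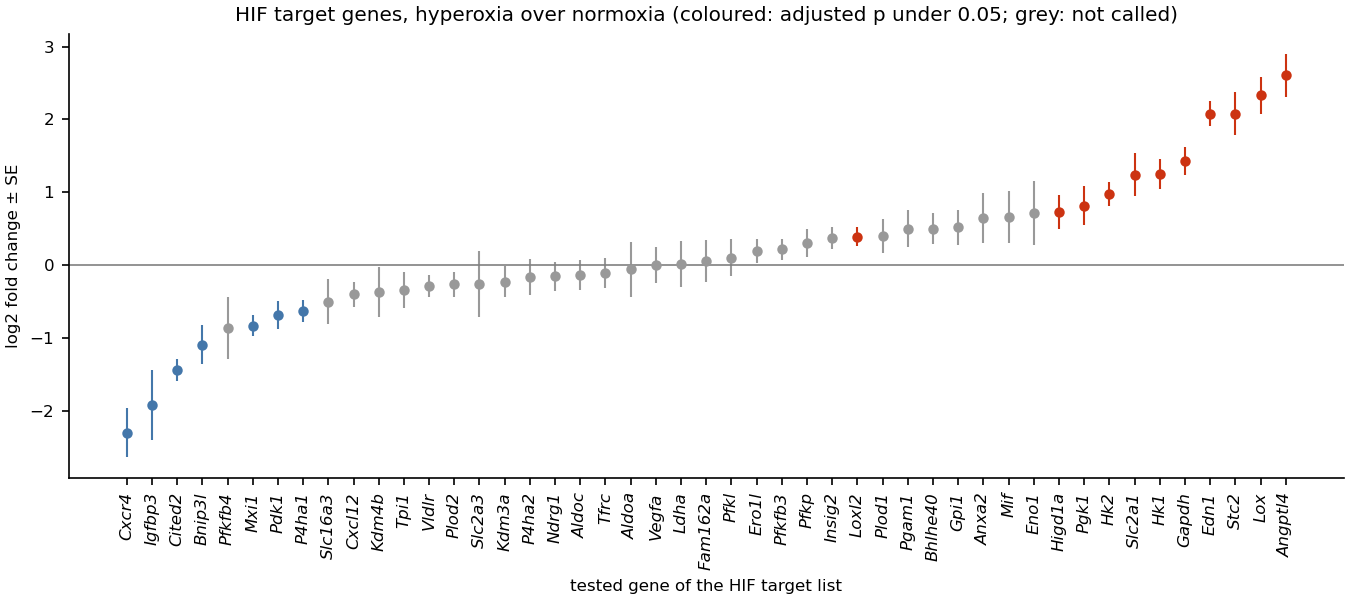
Log2 fold change ± SE (edgeR, hyperoxia over normoxia) of tested genes of the HIF target list in order of value, without 1 gene that is not shown; coloured points pass an adjusted p of 0.05 and grey points do not. Among the genes drawn, those that rose end with Angptl4 at 2.61, and the 7 that fell start with Cxcr4 at -2.29.

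In the VHL ligase and HIF turnover list, 6 of 27 tested genes rose and 1 fell (25.9%, beside 22.6% of all genes). The median of the list was 0.28. The ubiquitin-conjugating enzymes Ube2d3 (1.03, adjusted p = 0.000349) and Ube2d2a (0.79), the NEDD8-conjugating enzyme Ube2m (1.18) and the chaperone Hsp90aa1 (1.18), which holds HIF1α in a stable form, rose on the log2 scale in edgeR, whereas Ube2d1 fell by 0.69. The ligase subunits that join Vhl did not pass, at 0.04 for Tceb1, 0.28 for Tceb2, 0.25 for Rbx1 and 0.75 for Cul2 (adjusted p = 0.0615). The count was 10 without Hyperoxia replicate 1, where 28.5% of all genes passed, and 4 without Normoxia replicate 2, where 18.6% did. Within the B to M libraries 4 were higher and 0 lower, beside 8.8% of all genes. In the O to S libraries 7 of 28 were higher and 0 lower, beside 21.3%, so Ube2d1 passed in neither set.

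Of the HIF coactivators and corepressors, 1 of 18 tested passed (5.56%, beside 22.6% of all genes), with a list median of 0.04. This was Cited2, which competes with HIF for CBP and p300 and fell from 105 to 38.6 CPM (log2 fold change -1.44, SE 0.15, edgeR adjusted p = 6.67e-06). The coactivator genes themselves, Ep300 at -0.03 and Crebbp at 0.42, did not pass. Leaving out Hyperoxia replicate 1 gave 2 calls, both lower, beside 28.5% of all genes, and leaving out Hyperoxia replicate 2 gave 1 higher and 1 lower, beside 21.5%. The B to M libraries gave 0 higher and 1 lower, beside 8.8% of all genes. The O to S libraries gave 1 higher and 1 lower of 19 tested, beside 21.3%.

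Of the other bHLH-PAS genes, the family to which the HIF subunits belong, 4 of 11 tested passed (36.4%, beside 22.6% of all genes). The median of the list was -0.10. Ahr, the dioxin receptor that also pairs with ARNT, fell by 1.24 on the log2 scale (SE 0.17, edgeR adjusted p = 8.92e-05), and the clock gene Per3 fell by 0.92. The clock genes Clock and Arntl rose by 0.54 and 1.19 (edgeR adjusted p = 0.0329 and 0.034), whereas with library size alone as the scaling neither passed, and 0 of the list were higher and 4 lower, beside 22.1% of all genes. With at least 10 counts required in every library, 9 of the list were tested, of which 1 was higher and 4 were lower, beside 27.7%. With Normoxia replicate 1, Normoxia replicate 3, Hyperoxia replicate 3 or Hyperoxia replicate 4 left out, 2 passed, both lower, in fits where 18.8% to 22.1% of all genes passed. With Hyperoxia replicate 1 left out, 2 were higher and 3 lower, beside 28.5% of all genes. Within B to M 1 passed, beside 8.8%, and within O to S 1 was higher and 3 were lower, beside 21.3%.

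The HIF hydroxylases belong to a large class of enzymes that use oxygen as a substrate. Of 46 other dioxygenase genes tested, 2 rose and 4 fell (13%, beside 22.6% of all genes), with a median of -0.11. The DNA demethylase Tet1 fell by 2.60 on the log2 scale (edgeR adjusted p = 0.000164), from 17.6 to 2.96 CPM. The RNA demethylases Alkbh5 and Fto fell by 1.21 and 0.84. Alkbh3, a nucleic acid repair demethylase, rose by 0.93 and the histone demethylase Kdm5c by 0.58. Within the B to M libraries 1 of the list passed, beside 8.8% of all genes, and within the O to S libraries 10 did, beside 21.3%. The fit lacking Hyperoxia replicate 1 gave 4 higher and 4 lower, beside 28.5%.

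Of 24 tested mitophagy receptors and LC3 proteins, the setting in which Bnip3 acts, 4 rose and 2 fell (25%, beside 22.6% of all genes). The median of the list was -0.08. Sqstm1, the autophagy receptor p62, rose by 1.25 on the log2 scale (edgeR adjusted p = 5.84e-05), Optn by 1.05, Fundc2 by 0.69 and Atg5 by 0.50. Beside Bnip3l, Pink1, the kinase that marks damaged mitochondria, fell by 0.78 (SE 0.27, edgeR adjusted p = 0.0464). Within the B to M libraries 1 of the list passed, beside 8.8% of all genes, and within the O to S libraries 3 were higher and 4 lower, beside 21.3%. Without Hyperoxia replicate 1, 4 were higher and 4 lower, beside 28.5%. With any 1 of Normoxia replicates 1 to 5 or Hyperoxia replicates 4 and 5 left out, 4 were higher and 1 lower. In those fits 18.6% to 19.9% of all genes passed.

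**Figure D5:**
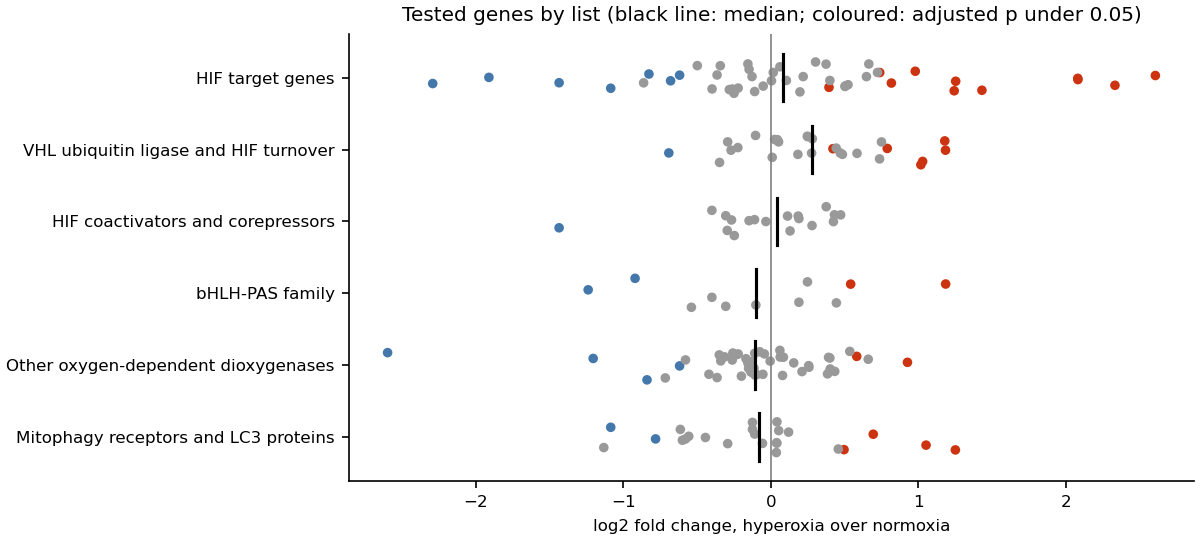
Log2 fold changes (edgeR, hyperoxia over normoxia) of the tested genes in 6 lists around the HIF pathway, without 1 HIF target that is not shown; each point is a gene, black lines are medians of all tested genes of a list, red and blue points pass an adjusted p of 0.05 as higher or lower, and grey points do not. Medians lie between -0.11 and 0.28, and each list holds genes on both sides of 0.

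Markers of lung cell types were set beside these results. For comparison, 11.8% of all genes tested were higher and 10.8% lower. Alveolar type 2 markers, which define the cells that make surfactant, passed as lower in 9 of 12 genes, with a fold change below 0 in all 12 and a median of -1.48. By adjusted p the first of these were Lamp3, S100g, Abca3 and Cxcl15, at log2 fold changes of -1.73, -2.46, -1.27 and -1.25. Their summed level was 16060 to 27720 CPM in normoxia and 4902 to 9244 CPM in hyperoxia. Endothelial markers were mixed, with 4 of 21 higher and 8 lower, a median of -0.47 and sums of 5632 to 8031 and 4231 to 7842 CPM, which overlap. Among them Mmrn2 rose by 2.00, Egfl7 by 1.37, Eng by 1.02 and Robo4 by 0.79 on the log2 scale, and Calcrl, Tmem100, Sox17 and Tek fell by 1.85, 1.69, 1.17 and 0.94. No marker of either list was at 0 in a whole group. Both cell types are known to express Epas1, and the direction of its difference relative to their markers depended on the set. Relative to the mean of these 21 endothelial markers in the same library, a reference whose own members moved both ways, Epas1 went from 2.92 ± 0.14 to 2.01 ± 0.66 on the log2 scale (SD, n = 7 and 6), a difference of -0.91 (exact permutation test, adjusted p = 0.00136). It was -0.66 without Hyperoxia replicate 1 (adjusted p = 0.00295), -1.22 within B to M (adjusted p = 0.0312) and -0.56 within O to S. Relative to the mean of the 12 alveolar type 2 markers, a reference added after the data were seen and given with no test, Epas1 was higher in hyperoxia, at 1.03 ± 0.25 in normoxia and 1.40 ± 0.41 in hyperoxia, with ranges that overlap. That difference was 0.37 on the log2 scale over all libraries, 0.52 without Hyperoxia replicate 1, 0.27 within B to M and 0.35 within O to S.

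Of the remaining marker lists, smooth muscle and pericyte genes were higher in 4 of 14 and lower in 2, with a rise on the log2 scale of 1.24 for Trpc6, 0.955 for Des, 0.77 for Acta2 and 0.72 for Cnn1, and log2 fold changes of -0.80 for Cox4i2 and -0.64 for Gucy1a3. Fibroblast markers were higher in 2 of 12 and lower in 3, and alveolar type 1 markers higher in 1 of 12 and lower in 1. Airway epithelial markers were lower in 6 of 10, with a median of -1.27. Among immune cells, macrophage and monocyte markers were higher in 1 of 14 and lower in 6, B cell markers lower in 8 of 9 and T and NK cell markers lower in 4 of 5. Neutrophil markers were higher in 1 of 6, and erythroid markers lower in 1 of 4. Of all genes, 11.8% were higher and 10.8% lower, 22.6% in either direction. The share called was 16.7% for the alveolar type 1 and neutrophil lists and 25% for the erythroid list. Beyond the value of Egln3 relative to the smooth muscle and pericyte markers, the part of these markers in the level of Hif1a or any other member was not tested.

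Over the 13 libraries, the genes whose log2 CPM followed Hif1a most closely among 10111 genes compared were Ndufaf4 (Pearson r = 0.979), Eif5 (0.977) and Txnrd1 (0.977), all higher in hyperoxia. For Epas1 they were Hdc (0.991), Fgfr3 (0.991) and Efna1 (0.990), all lower. With group means removed, the closest to Hif1a were Ccr2 (0.945), Pyhin1 (0.911) and Fam184a (0.906), and the closest to Epas1 were Fgfr3 (0.994), Podxl (0.990) and Hilpda (0.988). Without Hyperoxia replicate 1 these last values were 0.969, 0.944 and 0.937. The points share library preparation and depth, and the correlations are given as a description.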

How the data were processed

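RNA of 13 lung samples was measured by 3′ tag sequencing. The authors pseudoaligned the reads with kallisto and deposited whole-number counts per gene symbol, with mm10 named in the submitters' processing notes and limma 3.54.2 as their own test. They also deposited normalized values, which equal log10(CPM + 1) of those counts to within 4.4e-16. All columns were mapped to samples by name, with 0 left over. The depth was 1607111 to 4540288 counts per library, 12826 symbols had no count, and floors of 3 counts cover counting error only.

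The quasi-likelihood test of edgeR 4.0.16 (TMM scaling, filterByExpr, glmQLFit, glmQLFTest) was applied to the counts in R 4.3.3, without covariates, Benjamini-Hochberg adjusted at 0.05 over 12496 genes. Ratios within a library used a pseudocount of 0.5 and a two-sided exact permutation test, adjusted over 7 ratios, that of Epas1 to Hif1a included. Standard errors follow from the fold change and the F statistic, and log2 CPM used a prior count of 2. The fits were also run on simulated counts, and the outcome is not given here.

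The members and gene lists were chosen with earlier results of these data known. Beside the 10 members, the genes named are the up to 4 with the smallest adjusted p in each direction of each list (for marker lists, given for those that bear on a member), and the 3 genes most like each called member, among genes whose log2 CPM averaged 3 or more. A HIF target gene that meets this rule is counted in its list but not reported here by name. Other genes are examples chosen after their values were seen, and so was the grouping of HIF targets by role. Of the 36 pairs of libraries within a group, none agreed within sampling noise. Same-numbered libraries of the groups share only a number, since their deviations correlated at r = -0.325 to 0.272 and above 0.1 in 1 of 6 pairs.

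Alternatives were DESeq2 1.42.0, limma-voom and limma 3.58.1 on the authors' normalized table turned from log10 into log2, library size or RLE scaling, no filter or at least 10 counts in every library, a replicate block, the letter set as a term or apart, an absolute log2 fold change of 1.5 as in the study's methods, a pseudocount of 2, and each library left out. The test between letter sets, the likeness without Hyperoxia replicate 1, the adjustment over 6 ratios, the alveolar type 2 reference and the HIF target sum without Gapdh were added after the data were seen. Coordinates are from GENCODE on GRCm38, and promoter sequences from RefSeq on GRCm38.p6.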

Additional observations from a re-analysis of the deposited data

Results flagged for a closer look

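In 34 groups of values (members and ratios in each condition), the extreme library was compared with its nearest neighbour by Dixon's criterion, which chance meets in about 1 of 20 groups, or 1.7 of these. It was met 6 times, of which 4 concerned Hyperoxia replicate 1. That library was lowest for Epas1 at a log2 CPM of 6.94, with the next at 8.53, lowest for Egln1 at 3.93, with the next at 5.56, and lowest for Vhl at -1.90, where it held 0 counts, with the next at 2.43. It was highest for the log2 ratio of Bnip3 to Bnip3l at 0.82, with the next at -0.99. Epas1 and this ratio passed their tests without it, and Egln1 and Vhl did not pass with it or without it. The same library had the fewest genes with a count (14170) and the lowest share of mitochondrial counts (0.944%), and the part of these in its values was not tested.

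The others were Normoxia replicate 1, highest for Vhl at a log2 CPM of 4.50 with the next at 3.70, and Hyperoxia replicate 3, lowest for Hif1an at 3.09 with the next at 4.01.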

How the results depend on the processing

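Hif1a passed in all 24 alternatives (1.37 to 1.98) and Epas1 in 22 of 24 (-1.42 to -0.69). Same-numbered libraries share only a number. With the replicate number as a block, 1 member passed (Epas1 -1.27, adjusted p = 0.0607), with 1344 of all genes against 2819 and 4 genes of the VHL list, 2 of the bHLH-PAS family, 2 other dioxygenases and 3 mitophagy genes. Within the B to M libraries (5 against 3), 1 member and 1120 genes passed, with 10 HIF targets, 4 of the VHL list, 1 bHLH-PAS gene, 1 dioxygenase and 1 mitophagy gene. With an absolute log2 fold change above 1.5 required, 1 member and 488 genes passed, with 7 HIF targets, 1 dioxygenase and 0 in the VHL, coactivator, bHLH-PAS and mitophagy lists (7, 1, 4 and 6 at an adjusted p of 0.05 alone in edgeR). Coactivators gave 2 calls with library size alone, at least 10 counts in every library or within O to S, where dioxygenases gave 10, and bHLH-PAS genes gave 2 with limma on the deposited log values. That limma fit moved the share of higher calls from 52.3% to 38.8% and the median of all genes from -0.03 to -0.16 (-0.10 with library size alone).

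With libraries left out in turn, calls ranged from 4 to 10 in the VHL list, 1 to 2 for coactivators and 2 to 5 in the bHLH-PAS family. Signs turned for Arnt within B to M (0.075), for Hif1an within O to S (0.281) and without Hyperoxia replicate 3 (0.012, with libraries left out from -0.216 to 0.012), and for Egln2 with the letter set as a term (0.148), within O to S (1.132) and with libraries left out (-0.256 to 0.132, above 0 at 0.057, 0.057, 0.053 and 0.027 without Normoxia replicates 1, 2, 3 and 5 and at 0.072, 0.132 and 0.051 without Hyperoxia replicates 1, 3 and 5), with no adjusted p under 0.05 except Egln2 within O to S. The Egln3 to Egln1 ratio turned to 0.163 with a pseudocount of 2 and 0.327 within O to S, and ranged from -0.455 to 0.129 with libraries left out (0.041 without Normoxia replicate 7). Within O to S (2 against 3, smallest exact p 0.1), the ratios of Bnip3 to Bnip3l (0.793) and Epas1 to endothelial markers (-0.559) could not pass, and Epas1 to Hif1a, given without a test, was -2.071. Egln3 relative to smooth muscle markers passed within B to M (-1.242), on 0, 1 and 0 hyperoxic counts. With alveolar type 2 markers as the reference, the difference in Epas1 turned to 0.374. Adjusting without the Epas1 to Hif1a ratio changed no call. Causes were not tested. Vhl gave no value with 10 counts required in every library.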
